A study of Mus musculus with 6 samples.

Results

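Megakaryocyte progenitors (MkP), the sorted precursors of the cells that shed platelets, were profiled on Affymetrix arrays from 3 samples of fetal liver and 3 samples of bone marrow, with 1 array per sample. The fetal liver MkP came from wild-type C57BL/6 embryos at E13.5, and the bone marrow MkP from wild-type C57BL/6 adults aged 12 to 18 weeks. In both tissues the cells were gated as negative for lineage antigens and Sca-1 and as positive for c-kit, CD150 and CD41. The samples are labelled as biological replicates, and the labels do not say how many embryos or adults each one pooled, so the p-values measure only the spread between these samples. The genes described here are 42 genes of ribosome biogenesis and the MYC pathway, Myc and its partner Max among them. They were chosen by gene symbol, and each was read from its brightest probe set over the 6 arrays. Of the 42, 41 had a named probe set and passed the filter on dim probe sets, and they were tested among 11625 genes. Npm3 had no named probe set and is not analysed here. All 41 were brighter than the highest bacterial control signal (22.2 to 35.1) on all 6 arrays, and the lowest signal among them was 86.6, for Max in marrow replicate 1.

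Ribosomes are assembled in the nucleolus. RNA polymerase I transcribes the precursor of ribosomal RNA, small nucleolar ribonucleoproteins (snoRNPs) guide its chemical modification, and assembly factors fold and cut it into the small and the large subunit. MYC, a transcription factor that binds the E-box sequence as a dimer with MAX, is a well-known activator of these genes in growing cells, and members of the MXD family compete with it for MAX. The fetal liver is the main blood-forming organ of the mid-gestation embryo, and its progenitors expand quickly.

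Most of the nucleolar genes had a slightly higher signal in fetal liver MkP than in bone marrow MkP, while Myc itself did not. Of the 41 genes, 39 had a log2 fold change above 0 (fetal liver minus bone marrow), against 50.5% of all genes tested. Their median change was 0.45 on the log2 scale, or 1.37-fold, against a median of 0.0065 over all 11625 genes. Past a threshold of 0.05 on the adjusted p of limma, a linear model fitted to all genes with Benjamini-Hochberg adjustment, 5 genes rose in fetal liver: Rrp12, Wdr75, Nolc1, Pes1 and Noc4l. That is 5 of 41, where 3.01% of all genes tested rose. None of the 41 fell by limma, where 4.76% of all genes did, and at an unadjusted p under 0.05 the counts were 13 higher, where 10.7% of all genes were, and 0 lower, where 12.1% were. In 13 of the 41 genes all 3 fetal liver signals lay above all 3 bone marrow signals, and in 0 genes all lay below. Over all genes 13.8% and 14.2% were separated in these ways. The changes were small, with 14 of the 41 genes at 1.5-fold or more and 2, Rrp12 and Max, at 2-fold or more.

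The count of 5 rested on every array. It was 1, 0 and 0 without fetal liver replicates 1, 2 and 3, and 3, 1 and 3 without marrow replicates 1, 2 and 3, while the median change stayed between 0.42 and 0.52 in these 6 fits. The count of 5 was 1 without the variance trend and 3 without the filter. Calls over all genes fell too in these fits. The 350 risen genes became 177, 106 and 102 without fetal liver replicates 1, 2 and 3, and 309, 262 and 320 without marrow replicates 1, 2 and 3. They became 166 without the variance trend and 275 without the filter.

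**Figure D1:**
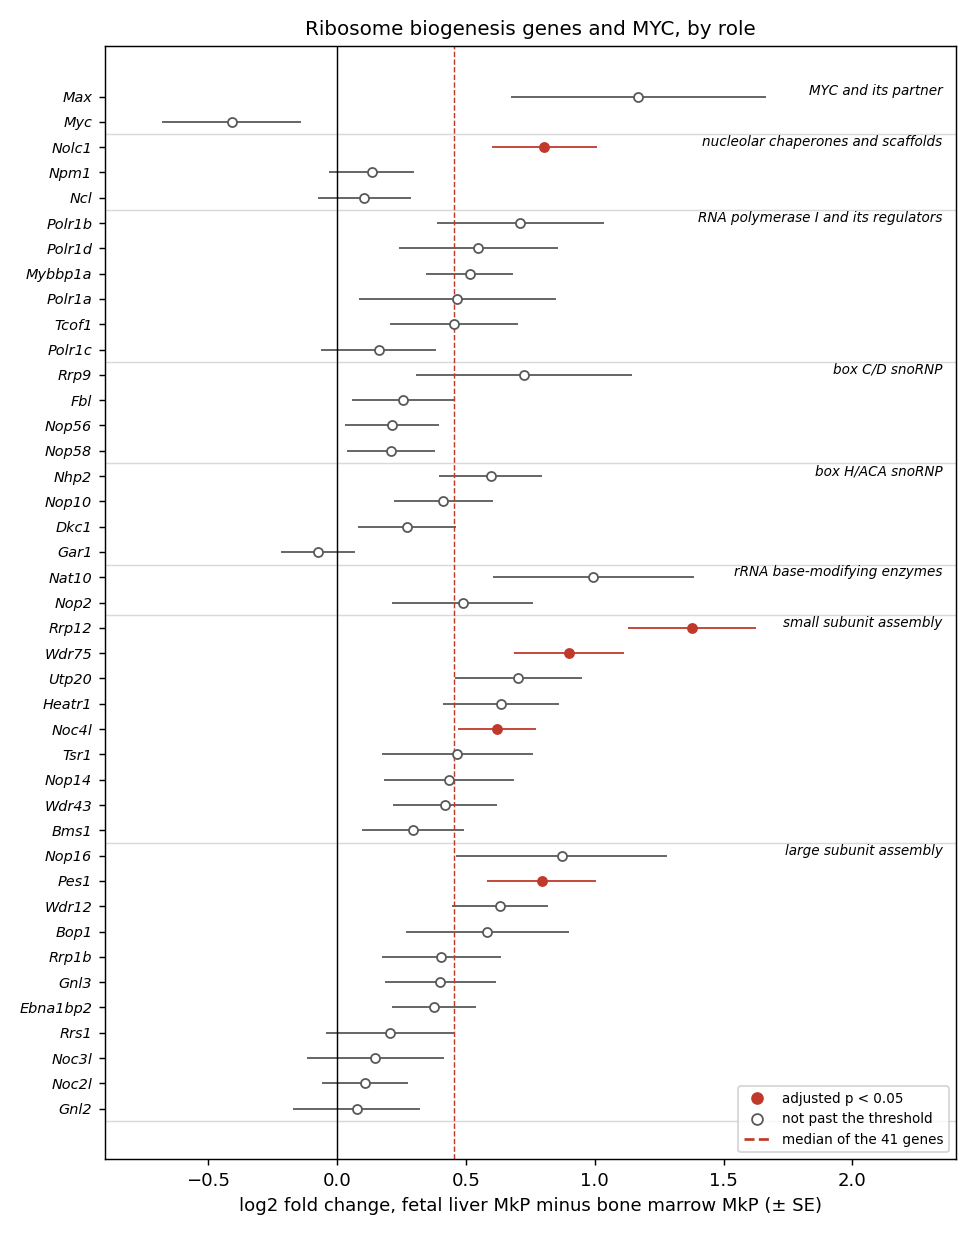
Log2 fold change with its standard error for each of the 41 genes, fetal liver MkP minus bone marrow MkP, grouped by role. Filled points passed the threshold on the adjusted p, the dashed line is the median of 0.45, and Myc (-0.41) and Gar1 (-0.07) are the genes left of 0.

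The scale of the arrays moves every value given here. The deposited signals have the same trimmed mean on all 6 arrays, but the median signal was 62.8 to 65.5 on the fetal liver arrays and 74.1 to 80.2 on the marrow arrays (two-sided exact permutation p = 0.1, the smallest that 3 against 3 allows). Centring each array on its median raised the median change of all genes by 0.25. Then 13 of the 41 genes rose and 0 fell, with a median of 0.70, while 7.72% of all genes rose and 3.77% fell. The calls over all genes were then 897 higher and 438 lower in fetal liver, against 350 higher and 553 lower as deposited. The 8 further genes were Ebna1bp2, Heatr1, Mybbp1a, Nhp2, Nop10, Utp20, Wdr12 and Wdr43. Quantile normalization went less far, with a median change of all genes of 0.091. There 4 of the 41 genes rose, Pes1 no longer among them, and 0 fell, with a median of 0.42. Over all genes 376 rose and 499 fell in that fit. The change also varied with the brightness of the probe set: among the brightest 2906 genes tested, which held 31 of the 41, the median change of all genes was 0.098 and that of the 31 was 0.40. Of these 2906 genes 59.3% had a change above 0 and 4.47% rose by limma, both more than over all genes tested. Of the 31, 29 had a change above 0.

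**Figure D2:**
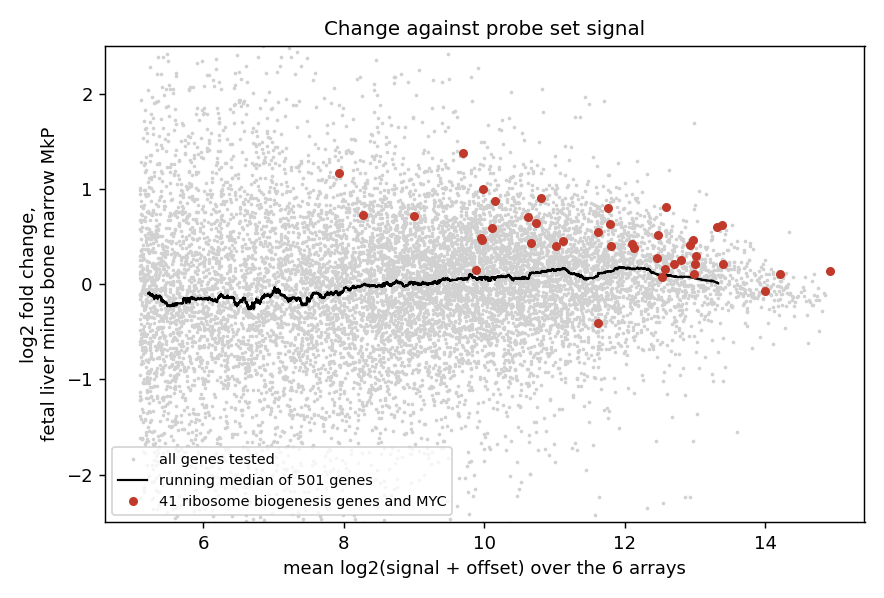
Log2 fold change (fetal liver MkP minus bone marrow MkP) against the mean log2 signal of each gene's probe set over the 6 arrays. Grey points are all genes tested (a few lie outside the plotted range), the black line is their running median along the signal, and the 41 genes (filled circles) sit mostly on the bright side and above that line.

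Myc and Max differed in direction, and neither passed the threshold. Myc, the transcription factor, had signals of 2768, 3034 and 2449 on the fetal liver arrays and 2333, 4253 and 4852 on the marrow arrays. The ranges overlapped, since marrow replicate 1 lay below all fetal liver arrays and the other two marrow arrays above them. The log2 change was -0.41 ± 0.27 (SE; limma adjusted p = 0.419; 95% interval -1.01 to 0.19), so no change of Myc was detected. The interval reaches further below 0 than above it. In all 18 alternatives the change of Myc was below 0 (-0.74 to -0.16) and not past the threshold. Max, its partner, had 259, 453 and 407 in fetal liver and 86.6, 166 and 283 in marrow. Its change of 1.17 ± 0.49 was the second largest of the 41, but the tissues overlapped and it did not pass the threshold (adjusted p = 0.190).

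**Figure D3:**
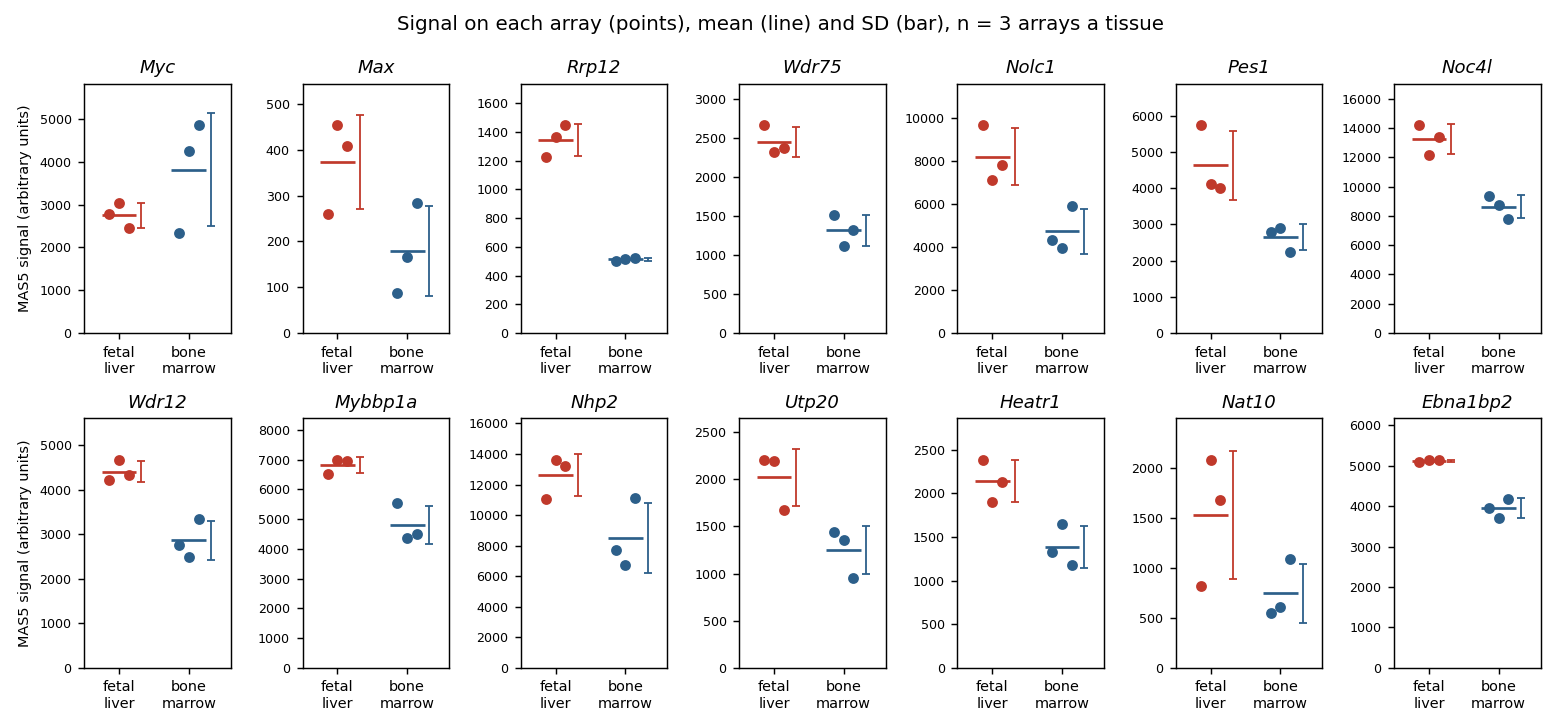
Signal of each array (points), mean (line) and SD (bar) for Myc, Max and 12 further genes, fetal liver MkP on the left and bone marrow MkP on the right of each panel, with axes that start at 0. In Rrp12 the 3 fetal liver signals run from 1225 upward and the 3 marrow signals reach 524 at most, while the points of Myc and Max overlap between the tissues.

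The E-box bound by MYC and MAX is CACGTG, which reads the same on both strands. It was searched in the RefSeq windows of GRCm38.p6 from 250 bases before to 50 bases after a gene's start, of which 33 of the 41 genes had at least 1. The motif stood in 7 of the 33 genes (21.2%). It stood in 20.2% of 114 other biogenesis genes with a window in 11.7% of 9481 genes tested with a window, and in 8.09% of all 27025 genes of the table. A match describes letters, not a bound site. The stretches around the 7 E-boxes are shown because MYC is the regulator these genes are best known for, with the E-box in capitals:
Max: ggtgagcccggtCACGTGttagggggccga
Mybbp1a: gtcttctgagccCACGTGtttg
Nop2: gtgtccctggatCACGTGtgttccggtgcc
Pes1: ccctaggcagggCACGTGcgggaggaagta
Tsr1: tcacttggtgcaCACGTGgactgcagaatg
Utp20: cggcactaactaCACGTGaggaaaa
Wdr43: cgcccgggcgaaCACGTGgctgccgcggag

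The stretches lie at chr12:76962234-76962263 (Max, minus strand), chr11:72441355-72441376 (Mybbp1a, plus), chr6:125131811-125131840 (Nop2, plus), chr11:3963965-3963994 (Pes1, plus), chr11:74898092-74898121 (Tsr1, plus), chr10:88826765-88826789 (Utp20, minus) and chr17:71616220-71616249 (Wdr43, plus). The E-box began before the start in 2 genes, 60 bases ahead in Nop2 and 3 in Max, and at or after it in 5, from base 3 in Pes1 to base 41 in Mybbp1a. The 7 genes had a median change of 0.51 (0.42 to 1.17) and the 26 genes with a window but no match had 0.42 (-0.07 to 0.99). Of the 5 genes that rose, Pes1 held the motif, Nolc1, Wdr75 and Noc4l did not, and Rrp12 had no window in the table.

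RNA polymerase I genes were higher on average and none passed the threshold on its brightest probe set. All 6 genes of the enzyme and its regulators had a change above 0 (median 0.49; limma called 0, with 1 at an unadjusted p under 0.05). Mybbp1a, a nucleolar protein that binds MYB and restrains rRNA synthesis, had 6520, 6993 and 6957 in fetal liver and 5536, 4360 and 4502 in marrow. These groups did not overlap, and the change was 0.51 ± 0.17 (adjusted p = 0.0935). Polr1b, the second-largest subunit, was also separated without overlap, at 608 to 728 in fetal liver and 290 to 499 in marrow, with a change of 0.71 ± 0.33 (adjusted p = 0.226). The catalytic subunit Polr1a (0.47) and Tcof1 (0.45), the treacle protein that recruits the polymerase, overlapped between tissues on their brightest probe sets. So did the subunits Polr1c (0.16) and Polr1d (0.55), which polymerase I shares with polymerase III. Polr1a and Polr1d each had a further probe set without overlap, at 0.81 and 0.76, while their other kept probe sets overlapped. Both further probe sets of Tcof1 were without overlap, at 0.64 and 0.32. With the mean of each gene's kept probe sets, Mybbp1a and Polr1d were past the threshold.

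The snoRNP proteins and the enzymes that modify rRNA varied in size of change. In the box C/D snoRNP, which methylates rRNA, the methyltransferase Fbl differed by 0.26, its partners Nop56 and Nop58 by 0.21 each, and Rrp9, a protein of the U3 snoRNP, by 0.73 ± 0.42 (limma adjusted p = 0.346). In the box H/ACA snoRNP, which makes pseudouridine, Nhp2 had 11023, 13608 and 13224 in fetal liver and 7691, 6723 and 11087 in marrow. Marrow replicate 3 overlapped the fetal liver range, and the change was 0.60 ± 0.20 (adjusted p = 0.103). The other members of that complex were Nop10 (0.41), the pseudouridine synthase Dkc1 (0.27) and Gar1, which had -0.07 ± 0.15 with a 95% interval of -0.39 to 0.25. Of the base-modifying enzymes, Nat10, an RNA acetyltransferase, had 820, 2079 and 1683 in fetal liver and 548, 607 and 1086 in marrow, a change of 0.99 ± 0.39 (adjusted p = 0.158). Its fetal liver replicate 1 lay within the marrow range. Nop2, an rRNA methyltransferase, differed by 0.49 (adjusted p = 0.330).

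Small subunit assembly held 3 of the 5 genes that rose. All 9 of its genes had a change above 0, with a median of 0.62, and 6 were separated without overlap. Rrp12, a factor of pre-ribosome maturation and export in yeast, had 1225, 1364 and 1447 on the fetal liver arrays and 505, 515 and 524 on the marrow arrays. The gap between the tissues was far larger than the spread within either, and the change was 1.38 ± 0.25 (SE; limma adjusted p = 0.00836), or 2.60-fold. Rrp12 was past the threshold in 16 of 18 alternatives, all but those without fetal liver replicate 2 or replicate 3 (adjusted p up to 0.0616).

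Wdr75, a WD-repeat protein of the complex that binds the nascent rRNA precursor, had 2665, 2319 and 2367 in fetal liver and 1516, 1116 and 1324 in marrow. Each fetal liver array lay well above each marrow array, with a change of 0.90 ± 0.22 (limma adjusted p = 0.0308), and the gene was past the threshold in 11 of 18 alternatives. Noc4l, a nucleolar complex protein of the small subunit, had 14188, 12178 and 13367 in fetal liver and 9345, 8771 and 7757 in marrow. The groups were again apart, and the change was 0.62 ± 0.15 (adjusted p = 0.0333). The probe set of Noc4l has an ID that marks possible cross-hybridisation, and its remaining probe set, at 299.6 to 621 in fetal liver and 230.5 to 402 in marrow, had a change of 0.74 that was not past the threshold (adjusted p = 0.326). All 4 probe sets of Noc4l had changes above 0, between 0.62 and 1.11. It was past the threshold in 11 of 18 alternatives.

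Utp20, a large scaffold of the small subunit processome, had 2206, 2191 and 1675 in fetal liver and 1440, 1355 and 957 in marrow (0.70 ± 0.25; limma adjusted p = 0.115). Heatr1, another large scaffold, had 2385, 1904 and 2135 in fetal liver and 1328, 1650 and 1174 in marrow (0.64 ± 0.23; adjusted p = 0.119). Both were separated without overlap and both missed the threshold. Wdr43 (0.42) was separated too, while Nop14 (0.43), the assembly GTPase Bms1 (0.30) and its relative Tsr1 (0.47) overlapped between tissues. The second probe sets of Bms1 (0.96) and Tsr1 (0.82) did not overlap.

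Among 11 genes of large subunit assembly all had a change above 0 (median 0.40), and 1 rose. Pes1, Bop1 and Wdr12 encode a trimer needed to process the RNA of the large subunit. Pes1 had 5733, 4120 and 4014 in fetal liver and 2795, 2908 and 2234 in marrow, without overlap, and changed by 0.79 ± 0.21 (limma adjusted p = 0.0456), a call kept in 7 of 18 alternatives. Wdr12 had 4224, 4664 and 4316 in fetal liver and 2748, 2484 and 3345 in marrow, also without overlap, at 0.63 ± 0.19 (adjusted p = 0.0679). A second, dimmer probe set of Wdr12 ran the other way, at 527, 516 and 443 in fetal liver and 786, 673 and 851 in marrow, so that the mean of its kept probe sets did not differ (0.00026, adjusted p = 0.999). Bop1 overlapped (0.58 ± 0.32; adjusted p = 0.312).

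The remaining large subunit genes did not pass the threshold. Ebna1bp2 had closely spaced signals of 5085, 5144 and 5138 in fetal liver and 3956, 3698 and 4186 in marrow, with a change of 0.38 ± 0.16 (limma adjusted p = 0.197). Nop16, at 939, 1953 and 1981 in fetal liver and 551, 720 and 1487 in marrow, had a larger change but a wide spread (0.87 ± 0.41; adjusted p = 0.239). Gnl3, the GTPase nucleostemin, was separated without overlap at 3511 to 5329 in fetal liver and 2696 to 3385 in marrow (0.40). Rrp1b (0.40), Rrs1 (0.21), Noc3l (0.15), Noc2l (0.11) and the GTPase Gnl2 (0.08) overlapped between tissues. The further probe sets of Rrp1b (0.59 and 0.80) did not overlap, while those of Rrs1, Noc3l, Noc2l and Gnl2 did.

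The abundant nucleolar chaperones Npm1 and Ncl stood near 0 on their brightest probe sets. Npm1, nucleophosmin, had 41482, 29148 and 28577 in fetal liver and 32353, 27035 and 29873 in marrow, a change of 0.13 ± 0.17 (limma adjusted p = 0.696; 95% interval -0.23 to 0.50). Ncl, nucleolin, had 23324, 17696 and 18753 in fetal liver and 21168, 14552 and 20164 in marrow (0.11 ± 0.18; adjusted p = 0.788; interval -0.29 to 0.50). In both genes these signals overlapped between tissues. The second probe set of Npm1 had 19206, 14463 and 16075 in fetal liver and 13227, 10311 and 13374 in marrow, without overlap, at 0.43, and the further probe sets of Ncl ran between -0.24 and 0.29. Nolc1, the snoRNP chaperone of the same group, rose: it had 9659, 7100 and 7830 in fetal liver and 4339, 3935 and 5895 in marrow, without overlap, and a change of 0.80 ± 0.20 (adjusted p = 0.0382), past the threshold in 10 of 18 alternatives. Its other probe sets had changes of 0.74 and 0.99.

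Second probe sets give a check within the same samples. The 41 genes had 89 probe sets in all, and 27 genes had 41 further ones above the filter. Of these 41 probe sets, 36 had a change above 0 and 5 below, with a median of 0.59. Some genes near 0 had a further probe set that differed more, in either direction. Npm1 had one at 0.43, Noc2l one at -0.70 and Gnl2 one at -0.65. Those of Noc2l (156 to 556) and Gnl2 (23.1 to 228) were dim and overlapped between tissues. For 10 of the 41 genes the brightest probe set had an ID that marks possible cross-hybridisation. These were Polr1c, Polr1d, Tcof1, Nop56, Gar1, Nhp2, Noc4l, Bms1, Tsr1 and Rrs1. Without such IDs 39 of the 41 could be tested, and Gar1 and Tsr1 could not. Nop56 had 5884, 5657 and 5637 in fetal liver and 4021, 2963 and 3756 in marrow on its second probe set, without overlap, and this probe set was past the threshold when IDs that mark possible cross-hybridisation were left out (0.69; limma adjusted p = 0.0401).

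The replicates differed among themselves along a pattern that both tissues shared. The 5' to 3' signal ratio of Gapdh, which falls where RNA is degraded or labelled short, was 0.109, 0.449 and 0.432 on the fetal liver arrays and 0.0990, 0.177 and 0.303 on the marrow arrays, lowest in replicate 1 of each tissue (exact permutation p = 0.3 between tissues). The ratio of Actb was 0.892, 1.02 and 0.971 on the fetal liver arrays and 1.08, 1.13 and 1.06 on the marrow arrays, apart without overlap (exact permutation p = 0.1, the smallest possible), and its part in the differences between tissues was not tested. Across the 41 genes, the deviations of fetal liver replicate 1 from its tissue's mean correlated at 0.75 with those of marrow replicate 1. With those of marrow replicates 2 and 3 the correlations were 0.026 and -0.80. Over all genes tested these 3 values were 0.15, -0.0049 and -0.15. The 41 points share arrays and are not independent. A gene's deviations sum to 0 within a tissue, so the 3 correlations are tied to one another. Max, Nop16, Polr1a and Nat10 were low in both replicates 1, and Polr1d, Tsr1, Rrs1 and Polr1c were high in both. Without these 2 arrays Rrp12 and Noc4l were past the threshold, and 161 of all genes rose, against 350 with all arrays. With the log2 Gapdh ratio as a covariate 7 of the 41 rose, the 5 above with Polr1d and Tsr1, and 409 of all genes rose. Both alternatives were chosen after seeing the data.

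**Figure D4:**
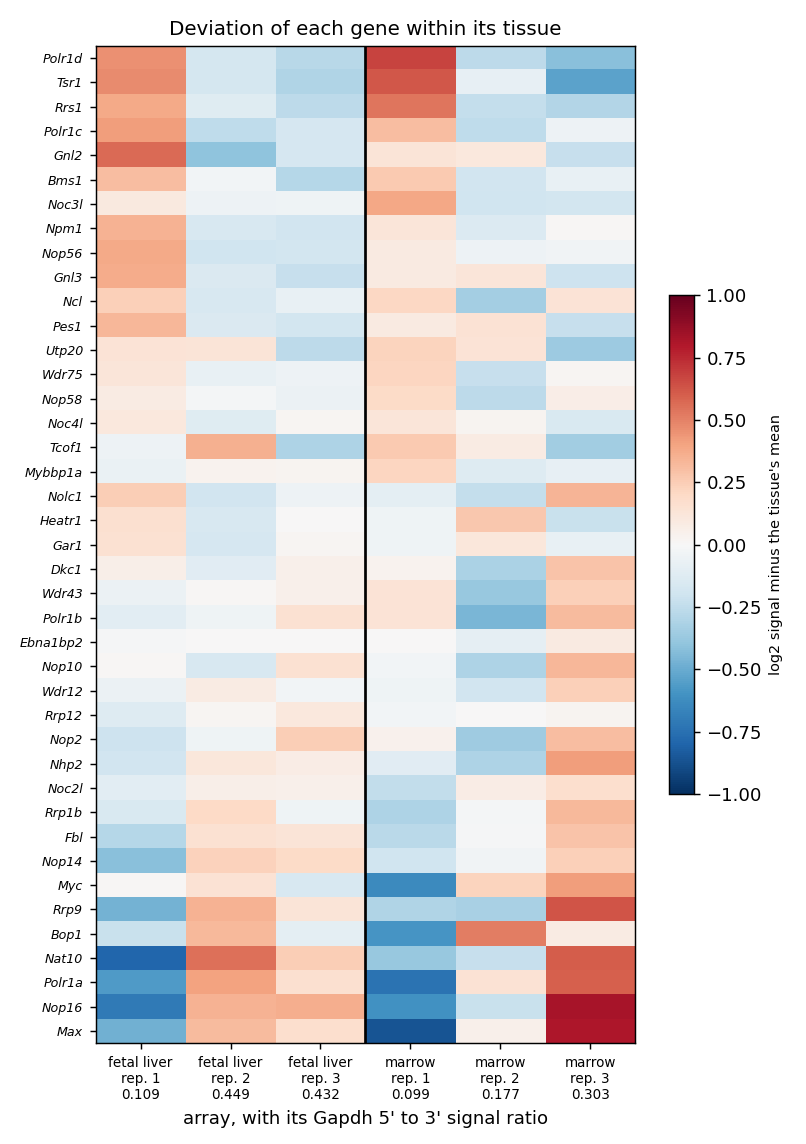
Deviation of the log2 signal of each of the 41 genes (rows) from the mean of its own tissue on each array (columns, fetal liver on the left), with the Gapdh 5' to 3' signal ratio of the array under its name. Genes at the top are high, and genes at the bottom low, on replicate 1 of both tissues, the arrays with ratios of 0.109 and 0.0990.

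Biogenesis genes outside this set showed the same direction. Of 136 further genes of RNA polymerase I, subunit assembly and the RNA exosome, 132 were tested and 122 had a change above 0. By limma 12 rose and 1 fell, where 3.01% and 4.76% of all genes did. The median was 0.43. Of the 132, 61 were separated with fetal liver above and 1 with it below, where 13.8% and 14.2% of all genes were. Under median centring 39 rose and 0 fell, where 7.72% and 3.77% of all genes did. With an array left out the count of risen genes was 0 without fetal liver replicates 2 and 3. It was 5, 5, 2 and 8 without fetal liver replicate 1 and marrow replicates 1, 2 and 3. Of 48 small subunit genes 3 rose, Nop9 (0.99), Aatf (0.95) and Ddx47 (0.60), and 0 fell. These were past the threshold in 12, 14 and 8 of 18 alternatives, and the mean over the probe sets of Ddx47 was 0.038 (adjusted p = 0.937). Of 54 large subunit genes 7 rose and 1 fell. The largest changes were Wdr74 (1.09 ± 0.28; adjusted p = 0.0401), Rrp15 (1.08 ± 0.21; adjusted p = 0.0106), the nuclear export adaptor Nmd3 (0.98 ± 0.25; adjusted p = 0.0401) and the GTPase Lsg1 (0.93 ± 0.24; adjusted p = 0.0385), which were past it in 10, 15, 8 and 9 of 18. The gene that fell was Rpf2, named after its value was seen (-0.76 ± 0.20; adjusted p = 0.0427), and its mean over probe sets ran the other way at 0.30. Among 16 polymerase I genes 1 rose, the shared subunit Polr2h (0.64; 9 of 18 alternatives), and among 14 exosome genes 1 rose, Exosc7 (0.96; 7 of 18), with 0 lower in both lists. That is 6.25% and 7.14% of these lists, where 3.01% of all genes rose, and in lists this short 1 call is near that share.

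**Figure D5:**
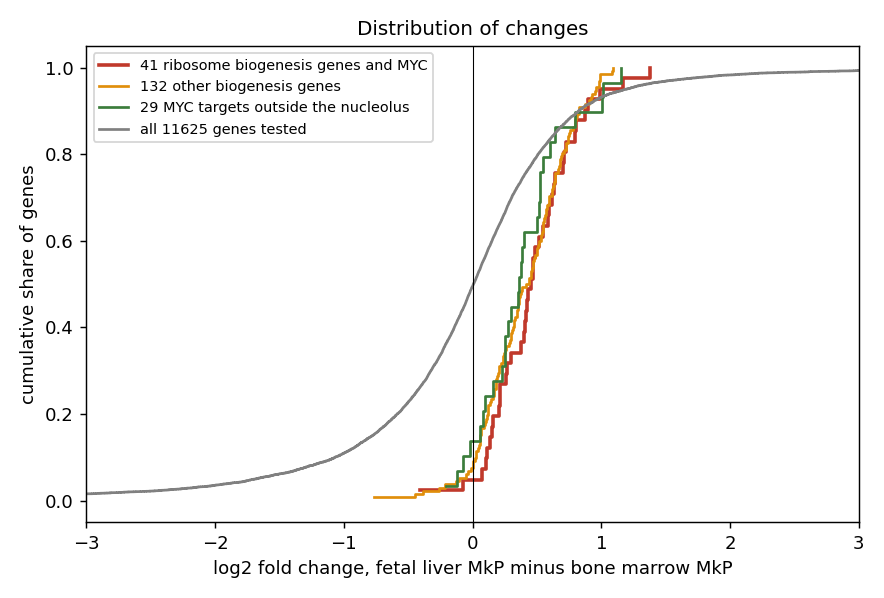
Cumulative share of genes by log2 fold change (fetal liver MkP minus bone marrow MkP) for the 41 genes, 132 other biogenesis genes, 29 MYC targets outside the nucleolus and all 11625 genes tested; the axis is limited to changes of -3 to 3. The medians are 0.45, 0.43, 0.36 and 0.0065.

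Some genes that MYC is known to activate outside the nucleolus rose too, and the MYC antagonists Mxd3 and Mxd4 fell. Of 29 tested MYC targets 25 had a change above 0 (median 0.36). By limma 0 fell, where 4.76% of all genes did, and 4 rose, where 3.01% did. These were Srm, spermidine synthase, with 1964, 2273 and 2389 in fetal liver and 938, 724 and 1421 in marrow (1.15 ± 0.28; limma adjusted p = 0.0310), Tfrc, the transferrin receptor (1.01 ± 0.21; adjusted p = 0.0165), the mitochondrial folate enzyme Mthfd2 (1.01 ± 0.23; adjusted p = 0.0268) and Gart of purine synthesis (0.80 ± 0.20; adjusted p = 0.0363). They were past the threshold in 10, 15, 11 and 8 of 18 alternatives. Gart was at 0.41 when its probe sets were averaged (adjusted p = 0.320). It was at 0.31 without fetal liver replicate 2 (adjusted p = 0.756). The brightest probe set was picked anew in each fit, and that value came from another probe set of Gart. Tfrc also serves iron uptake in erythroid cells, whose genes were higher in fetal liver as given below. In the wider MYC network of 16 tested genes 0 rose and 2 fell, where 3.01% and 4.76% of all genes did. Mxd4 had 509, 405 and 471 in fetal liver and 1724, 1881 and 1965 in marrow, without overlap, a change of -2.01 ± 0.25 (adjusted p = 9.86e-04) that was past the threshold in all 18 alternatives (adjusted p up to 0.0325). Mxd3 had 972, 826 and 966 in fetal liver and 1687, 3107 and 2067 in marrow (-1.27 ± 0.27; adjusted p = 0.0177), and was past the threshold in 14 of 18. It missed it without the variance trend, with the mean of its probe sets and without fetal liver replicate 2 or 3 (adjusted p up to 0.307). Its change stayed between -1.50 and -0.96 in all 18.

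Markers of other cells moved with the same contrast, and their part in these results was not tested. The sort genes Itga2b (CD41), Kit and Slamf1 (CD150) were above the bacterial controls on all 6 arrays and did not pass the threshold (-0.64, -0.55 and 0.29). Itga2b was lower in fetal liver without overlap, at 2484 to 4056 against 4173 to 5397 in marrow, while Kit and Slamf1 overlapped. Of 7 tested sort and megakaryocyte markers, 2 were separated with fetal liver above and 2 with it below, where 13.8% and 14.2% of all genes were. By limma 3.01% of all genes tested rose and 4.76% fell, the shares to set beside the counts of each list below. Of 17 tested erythroid genes 6 rose and 0 fell, and the summed signal of 18 was 30927 to 45330 in fetal liver and 22353 to 28356 in marrow. Of 15 tested granulocyte and monocyte genes 0 rose and 14 fell, with a sum over 19 of 5196 to 7347 in fetal liver and 47967 to 79141 in marrow. Ltf and Chil3 of that list were not above background on any fetal liver array. Of 5 tested hepatocyte genes 1 rose, the sum over 10 was 668 to 3754 in fetal liver and 301 to 695 in marrow, and Fgb, Fgg and Rbp4 lay within background on all 6 arrays. Of 5 tested mast cell and basophil genes 3 fell, with a sum over 7 of 389 to 515 in fetal liver and 1869 to 3596 in marrow. Of 5 tested macrophage genes 3 fell, with a sum over 12 of 369 to 513 in fetal liver and 1922 to 3718 in marrow. Of 6 tested lymphoid genes 2 fell, with a sum over 13 of 532 to 766 in fetal liver and 2080 to 2685 in marrow. Of 24 proliferation genes 18 had a change above 0, where 50.5% of all genes did, with a median of 0.31, and limma called 0. At an unadjusted p under 0.05, 8 were higher and 0 lower, where 10.7% and 12.1% of all genes were. Under median centring limma called 8 higher, where 7.72% of all genes were. In sorted bulk RNA, a different share of cells of one type and a different amount of RNA per cell cannot be told apart.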

How the data were processed

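The deposited values are probe set signals on a linear intensity scale, for which the submitters' processing notes name MAS5 as the authors' tool. Its version, scaling target and filters are not stated in those sources, and the precision is limited by the number of arrays. Signals were converted to log2(signal + 2.87), the offset being their 10th percentile. Of 45037 probe sets other than 64 controls, 27022 lay above the 40th percentile of mean log2 signal, and each gene was read from its brightest named one. The 3 fetal liver and 3 marrow arrays were fitted with limma 3.58.1 (lmFit, then eBayes with a variance trend; R 4.3.3), a script tested on simulated data. All log2 changes are fetal liver minus bone marrow and understate changes of dim genes. Array measures used two-sided exact permutation tests. Background was the highest of 27 bacterial control signals of an array.

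The genes and lists were chosen with earlier results of these data known. Signals per array are given for Myc, Max, the genes past the threshold and those of smallest p, up to 12. Those of Npm1, Ncl and Nop16, and of further probe sets, were added after their values were seen. From each further list up to 4 called genes with the largest change, or the 2 of smallest p, could be named. Gene names came from the platform annotation, which gave 34958 probe sets 1 symbol, 932 several and left 9211 unlisted, and 3 newer symbols of the lists (Polr1f, Polr1g and Polr1h) were matched by hand to its older ones.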

Additional observations from a re-analysis of the deposited data

How the results depend on the processing

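Under 16 listed alternatives and 2 added after seeing the data, 0 of the 41 genes fell past the threshold. The count of 5 risen genes was 13 under median centring, 3 without the filter, 1 without the variance trend and 2 without replicate 1 of both tissues. It was 0 to 3 with 1 array left out. Over all genes the 350 risen became 897, 275, 166 and 161 in the same fits, and 102 to 320 with 1 array left out. The median change was 0.70 under median centring and 0.42 to 0.52 with 1 array left out. Of the other biogenesis genes 12 rose, against 7 under quantile normalization, 39 under median centring, 4 without the filter, 0 without the variance trend, 3 without replicate 1 of both tissues and 0 to 8 with 1 array left out. The 1 that fell became 0 under median centring, without the filter, without the variance trend, with the mean of probe sets, without replicate 1 of both tissues and with any array left out.

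In a fit with a replicate block on the sample numbers, 7 of the 41 rose, with Nhp2 and Wdr12 added, as did 19 other biogenesis genes. Over all genes 522 rose, against 350 without the block. The labels give the sample numbers no shared source. Deviations of same-numbered arrays correlated at 0.15, -0.022 and 0.081 over all genes and at 0.75, 0.17 and 0.80 over the 41, and fetal liver replicate 2 correlated best with marrow replicate 3 in both, so the numbers were not taken to pair the samples.

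In 7 genes the sign changed. Leaving out 1 array in turn, Ncl ran between -0.063 (without marrow replicate 2) and 0.21, and was -0.013 without fetal liver replicate 1. Npm1 ran between -0.040 and 0.23 and Polr1c between -0.048 and 0.32, both lowest without fetal liver replicate 1. Gar1 ran between -0.15 and 0.011 (without fetal liver replicate 2), Gnl2 between -0.21 and 0.28, and Noc2l between -0.014 and 0.19. Gar1 was 0.18 under median centring. Gnl2 was -0.027 under quantile normalization, -0.19 with the mean of probe sets, -0.21 without fetal liver replicate 1, -0.040 without marrow replicate 3 and -0.14 without replicate 1 of both tissues. Noc2l was -0.29 with the mean of probe sets and -0.014 without marrow replicate 1. Rpf2 was 0.30 with the mean of probe sets. The cause was not tested. With 3 arrays a tissue, the 95% interval of the change held 0 in 28 of the 41 genes.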
